A study of Mus musculus with 12 samples.

Results

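Immediate early genes were followed in RNA from mouse spleen CD11c+ cells: Fos, Fosb, Jun, Junb, Egr1, Ier2, Atf3, Dusp1, Nr4a1 and Zfp36. They were chosen by name, as AP-1 and EGR transcription factors, an orphan nuclear receptor and early feedback genes, and every array probe assigned to them was taken. These 10 genes, of 21946 named on the array, had 11 of its 46237 probes, because Junb had 2 and each other gene 1. A probe entered the tests where 3 or more of the 12 arrays detected it above background (p under 0.05), which held for 10 of the 11 probes and 9 of the 10 genes, against 26390 probes in all.

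Immediate early genes are switched on within minutes of a signal, from factors already present in the cell, with no need for new protein. MAP kinases act on the serum response factor and its partners, and on CREB and ATF factors bound near the start sites. The products either go on to drive later genes, as the AP-1 and EGR factors do, or close the response again, as the phosphatase Dusp1 and the mRNA decay factor Zfp36 do, and the transcripts are short-lived. In many tissues the same genes are known to be induced by dissociation and cell sorting, so their level in isolated cells can carry the handling as well as the state in the animal.

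The cells came from ApoE-/- mice (a strain lacking apolipoprotein E, which clears cholesterol-rich lipoproteins from blood; the sample characteristics spell it ApE-/-) or from Bl6 mice, the wild type. Mice of each strain received standard chow or a high-cholesterol diet. Each of the 4 groups held 3 samples: 1 to 3 were ApoE-/- on chow, 4 to 6 ApoE-/- on the high-cholesterol diet, 7 to 9 Bl6 on chow and 10 to 12 Bl6 on the high-cholesterol diet. All were taken with magnetic beads against CD11c, an integrin of dendritic cells and some macrophages, the cells received no treatment of their own, and each sample was hybridised to a separate Illumina MouseWG-6 v2 array. Age and sex are not given in the sources used here, nor whether the 3 samples of a group came from 3 mice, so p-values measure a spread among samples that may be technical only. Bead isolation was common to all samples, so its part in any level cannot be told apart from the state of the cells before it.

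Array medians lay between 102 and 120 intensity units, and each array detected 22077 to 23245 probes (47.7% to 50.3%). The number of arrays, 3 per group, limits the precision of what follows. The dendritic cell marker Itgax, which encodes CD11c, was detected in every sample at a log2 level of 8.03 to 8.73, and 9 of 10 dendritic cell markers were detected on all arrays, as were 8 of 8 macrophage, 7 of 7 T cell and 5 of 5 erythroid markers, so the samples were not dendritic cells alone. Apoe read 5.50 to 5.93 in the 6 ApoE-/- samples, 12.18 to 12.33 in Bl6 on chow and 13.04 to 13.29 in Bl6 on the high-cholesterol diet, which accords with the genotype labels. Xist, the RNA of the inactive X chromosome, read 4.17 to 4.39 in every ApoE-/- sample and 9.75 to 10.88 in every Bl6 sample, so genotype and Xist state cannot be told apart in any genotype comparison. The authors' deposited log2 table also exchanges the diets of the ApoE-/- arrays: its columns for samples 1, 2 and 3 hold the values that the intensity table gives for samples 4, 5 and 6, and the reverse. The names of the intensity table were used, and values with the ApoE-/- diets exchanged are given for the main differences they touch and for all that turned sign.

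The promoter sequences of 4 members are shown: Fos, Fosb, Junb and Dusp1. Each was without overlap between the groups of at least 1 comparison below. In single comparisons, 2.33% to 19.2% of all tested probes were without overlap too. Each also holds the CRE core, the letters TGACG that CREB and ATF factors recognise, as do Atf3 and Nr4a1. A link between the core and the separation of groups was not tested. RefSeq windows of GRCm38.p6, running from 250 bases before to 50 after the start site, were given for 8 of the 10 members; Egr1 and Ier2 are named only. Each line gives the 250 bases before the start, 5′ to 3′ on the gene's strand, with the cores, and the full site TGACGTCA in Dusp1, in capitals. The windows lie at chr12:85473640-85473889 on the plus strand for Fos, chr7:19310046-19310295 on the minus strand for Fosb, chr8:84978749-84978998 on the minus strand for Junb and chr17:26508473-26508722 on the minus strand for Dusp1.
Fos: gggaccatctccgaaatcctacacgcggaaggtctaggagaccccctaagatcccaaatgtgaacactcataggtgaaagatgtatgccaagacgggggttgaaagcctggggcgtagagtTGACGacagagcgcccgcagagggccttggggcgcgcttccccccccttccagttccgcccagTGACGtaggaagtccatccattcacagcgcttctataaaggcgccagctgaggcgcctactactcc
Fosb: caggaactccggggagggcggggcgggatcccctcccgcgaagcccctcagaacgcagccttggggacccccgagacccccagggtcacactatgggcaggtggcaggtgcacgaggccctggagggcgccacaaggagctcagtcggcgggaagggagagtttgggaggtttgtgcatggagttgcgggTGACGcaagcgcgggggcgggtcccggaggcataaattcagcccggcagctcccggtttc
Junb: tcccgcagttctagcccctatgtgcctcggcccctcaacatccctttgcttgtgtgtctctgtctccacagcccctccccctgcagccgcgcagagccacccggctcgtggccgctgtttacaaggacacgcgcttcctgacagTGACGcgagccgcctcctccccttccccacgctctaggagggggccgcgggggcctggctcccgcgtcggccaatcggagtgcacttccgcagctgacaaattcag
Dusp1: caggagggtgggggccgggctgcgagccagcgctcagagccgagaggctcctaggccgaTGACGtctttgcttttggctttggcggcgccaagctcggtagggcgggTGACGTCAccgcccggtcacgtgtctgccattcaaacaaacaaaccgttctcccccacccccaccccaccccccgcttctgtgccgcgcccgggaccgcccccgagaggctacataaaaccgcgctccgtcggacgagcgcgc
On either strand, TGACG stood in 6 of the 8 member windows, against 20.8% of 32851 windows of the same length. The leftmost base of each match, on the gene's strand, lay at -129 and -66 in Fos, -60 in Fosb, -106 in Junb, -7 in Atf3, at -191, -143 and -140 in Dusp1, and at -233, -213, -69 and -40 in Nr4a1. The matches in Atf3 and Nr4a1 read CGTCA, the core on the other strand. The Nr4a1 window, chr15:101266596-101266845, lies inside the gene's span of 101253902 to 101274795, so it belongs to an internal start site. The Dusp1 sites at -143 and -140 are the 2 strands of the full CRE, TGACGTCA, which contains the core on both strands and stood in 1.79% of all windows. A CArG box, the site of the serum response factor, was found in 1 member window, that of Zfp36 at -58, against 1.63% of all windows. Sequence outside the windows was not searched, so a member without a match can hold a site further from its start. TATAAA was found in the windows of Fos, at -33, and Junb, against 13.6% of all windows. In Junb it begins at base 1 after the start, outside the printed bases and not before the start as in Fos. The windows are rich in G and C, with 58.7% in Fos, 68.3% in Fosb, 65.3% in Junb, 67.0% in Dusp1 and 72.3% in Nr4a1, against a median of 52.7%. A match is a description of these letters and was not tested as a binding site.

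All values below are log2 intensities after background correction and quantile normalisation, listed for samples 1 to 12 in order, and a difference is given as log2 ± standard error. A probe is said to rise or fall only where limma's moderated test gave a Benjamini-Hochberg adjusted p under 0.05 over all tested probes. By that rule 0 of the 10 member probes were called in any of 6 comparisons, where 0% to 1.6% of all tested probes were. Counts at an unadjusted p under 0.05 by limma follow, with the share of all tested probes in brackets. They were 3 for genotype averaged over diets (15.8%), 1 for genotype on chow (10.5%) and 2 for genotype on the high-cholesterol diet (13.2%). For diet they were 3 in Bl6 (12%) and 0 in ApoE-/- (3.72%), and for the interaction 1 (7.6%). Levels of different genes come from different probes and are not set against each other.

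The AP-1 factors are dimers of a Fos and a Jun protein, or of either with an ATF protein. Fos, the founding member of the family, read 8.33, 8.30 and 7.94 in ApoE-/- on chow, 7.78, 7.78 and 8.36 in ApoE-/- on the high-cholesterol diet, 8.21, 7.87 and 8.17 in Bl6 on chow, and 7.33, 7.61 and 7.49 in Bl6 on the high-cholesterol diet. The 3 Bl6 high-cholesterol samples were the lowest of the 12, below both other groups they were compared with and without overlap. Fos was lower by diet in Bl6, with a difference of -0.61 ± 0.18 (1.53-fold lower, 95% interval -1.01 to -0.21, unadjusted p = 0.00617 and limma adjusted p = 0.234), and did not pass. Between genotypes on the high-cholesterol diet the difference was 0.50 ± 0.18 (1.41-fold higher in ApoE-/-, interval 0.10 to 0.90, limma adjusted p = 0.266). On chow the genotypes overlapped, with a difference of 0.11 ± 0.18 (limma adjusted p = 0.887). With the ApoE-/- diets exchanged, the genotype difference was 0.72 on the high-cholesterol diet (limma adjusted p = 0.112) and turned to -0.11 on chow. The raw Fos signal stood at 366 to 431 intensity units in ApoE-/- on chow, 310 to 357 in ApoE-/- on the high-cholesterol diet, 306 to 379 in Bl6 on chow and 234 to 294 in Bl6 on the high-cholesterol diet, so Bl6 on the high-cholesterol diet was lowest before any normalisation too. In bulk samples such as these, fewer cells of a type and less RNA per cell cannot be told apart.

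Fosb encodes a Fos relative with a long and a short form, the short form being a stable product that lacks the activation domain. Fosb read 4.96, 4.76 and 4.84 in ApoE-/- on chow, 5.45, 5.12 and 4.59 in ApoE-/- on the high-cholesterol diet, 6.18, 6.41 and 5.35 in Bl6 on chow, and 5.15, 5.09 and 4.86 in Bl6 on the high-cholesterol diet. The Bl6 chow samples stood above those of ApoE-/- on chow and of Bl6 on the high-cholesterol diet, with samples 7 and 8 well above all others and sample 9 below the highest ApoE-/- high-cholesterol sample. The genotype difference on chow was -1.12 ± 0.27 (2.18-fold lower in ApoE-/-, interval -1.71 to -0.54, unadjusted p = 0.0013, limma adjusted p = 0.143). Without sample 9 it was -1.44, with a limma adjusted p of 0.0496, the 1 setting in which a Fosb value crossed the threshold. By diet in Bl6 the difference was -0.95 ± 0.27 (1.93-fold lower, interval -1.53 to -0.36, limma adjusted p = 0.205). On the high-cholesterol diet the genotypes differed by 0.02 ± 0.27, and the interaction was 1.14 ± 0.38 (interval 0.32 to 1.96, unadjusted p = 0.011, limma adjusted p = 0.528). With the ApoE-/- diets exchanged, the chow difference was -0.93 (limma adjusted p = 0.246), the chow groups overlapped, and the interaction was 0.75. These are dim values: the probe was detected on 11 of 12 arrays, missing sample 6, and its raw signal ran only from 102 to 164 intensity units. Its size therefore depends on the background step: without background correction the Fosb difference was -0.39 for genotype on chow (limma adjusted p = 0.0776) and -0.34 by diet in Bl6 (limma adjusted p = 0.114). Fosb also lies on the same chromosome as Apoe, with 21 protein-coding genes between them in the GRCm38.p6 gene table, so DNA carried along with the Apoe knockout and the loss of Apoe cannot be told apart at this gene.

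Jun, the partner of Fos in the classical dimer, showed no ordered groups. It read 6.49, 6.93 and 6.53 in ApoE-/- on chow, 7.13, 6.59 and 6.62 in ApoE-/- on the high-cholesterol diet, 6.63, 6.52 and 6.57 in Bl6 on chow, and 6.69, 6.31 and 6.61 in Bl6 on the high-cholesterol diet. Sample 4 was the highest and all 4 groups overlapped. The genotype difference averaged over diets was 0.16 ± 0.12 (interval -0.11 to 0.43, limma adjusted p = 0.592), and by diet in Bl6 it was -0.04, so the Jun probe did not share the lower reading of Fos in Bl6 on the high-cholesterol diet.

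Junb, a Jun relative that in many settings restrains Jun, gave the most even readings of the 4 AP-1 probes above. It stood at 10.84, 10.66 and 10.59 in ApoE-/- on chow, 10.54, 10.83 and 10.65 in ApoE-/- on the high-cholesterol diet, 10.77, 10.48 and 10.45 in Bl6 on chow, and 10.25, 10.31 and 10.16 in Bl6 on the high-cholesterol diet. After normalisation the 3 Bl6 high-cholesterol samples were the lowest of all 12, as for Fos. Unlike that of Fos, the raw Junb signal overlapped, at 1236 to 1454 intensity units in Bl6 on the high-cholesterol diet. It stood at 1452 to 1703 in Bl6 on chow and 1435 to 1939 in ApoE-/- on the high-cholesterol diet. The genotype difference was 0.44 ± 0.13 on the high-cholesterol diet (1.35-fold higher in ApoE-/-, interval 0.15 to 0.72, unadjusted p = 0.00635, limma adjusted p = 0.175), and 0.28 ± 0.09 averaged over diets (interval 0.08 to 0.49, limma adjusted p = 0.165). Junb was the only member whose adjusted p crossed the threshold under another scaling of all arrays: without background correction it was 0.0399 for the averaged genotype effect and 0.0375 on the high-cholesterol diet, and with the deposited log2 values 0.0128 and 0.0171, by limma. Its difference hardly moved there, at 0.27 and 0.32 averaged and 0.41 and 0.46 on the high-cholesterol diet. Calls over all tested probes rose in these 2 settings too, from 423 to 1138 and 1653 averaged. On the high-cholesterol diet they rose from 202 to 632 and 949. With the deposited log2 values the median of all tested probes was itself 0.077 averaged and 0.108 on that diet. Under the exchange of the ApoE-/- diets the Junb difference was 0.46 on the high-cholesterol diet (limma adjusted p = 0.148), again without overlap. By diet in Bl6 the difference was -0.33 ± 0.13 (1.25-fold lower, interval -0.61 to -0.04, limma adjusted p = 0.354). The second Junb probe, detected on 6 arrays with values of 4.15 to 5.31, read 0.22 in the other direction by diet in Bl6 (limma adjusted p = 0.772), so the Junb readings rest on the bright probe.

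Atf3 encodes a stress-induced ATF protein that can repress transcription. Its values were 6.76, 6.36 and 6.27 in ApoE-/- on chow, 6.03, 6.29 and 6.45 in ApoE-/- on the high-cholesterol diet, 6.05, 6.68 and 6.21 in Bl6 on chow, and 6.09, 6.26 and 6.62 in Bl6 on the high-cholesterol diet. All groups overlapped, and the group means lay within 6.26 to 6.46. The averaged genotype difference was 0.04 ± 0.15, with an interval of -0.28 to 0.36 that leaves room for changes of modest size in either direction.

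Egr1, the zinc finger factor that couples growth factor signals to transcription, read 10.41, 10.30 and 9.99 in ApoE-/- on chow, 10.29, 10.13 and 10.30 in ApoE-/- on the high-cholesterol diet, 10.30, 10.69 and 10.40 in Bl6 on chow, and 10.21, 10.38 and 10.21 in Bl6 on the high-cholesterol diet. Samples 3 and 8 were the lowest and the highest. The genotype difference on chow was -0.23 ± 0.14 (limma adjusted p = 0.613), and by diet in Bl6 -0.20 ± 0.14 (limma adjusted p = 0.644). With the ApoE-/- diets exchanged the chow groups no longer overlapped, at a difference of -0.22 (limma adjusted p = 0.634). Nr4a1, an orphan nuclear receptor induced by antigen receptor signals, was not well above background on any of the 12 arrays, with raw signals of 80.2 to 107.9 intensity units, and was not tested.

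Among the feedback genes, Dusp1, the phosphatase that switches off MAP kinases, was the steadiest within groups. Dusp1 read 10.66, 10.60 and 10.61 in ApoE-/- on chow, 10.53, 10.78 and 10.67 in ApoE-/- on the high-cholesterol diet, 10.76, 10.90 and 10.88 in Bl6 on chow, and 10.56, 10.77 and 10.46 in Bl6 on the high-cholesterol diet. The 3 Bl6 chow samples stood above the 3 of ApoE-/- on chow. The difference there was -0.22 ± 0.12 (interval -0.48 to 0.04, limma adjusted p = 0.557), and the 2 groups overlapped once the ApoE-/- diets were exchanged. By diet in Bl6 it was -0.25 ± 0.12 (unadjusted p = 0.0532, limma adjusted p = 0.424), with sample 11 inside the chow range.

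Zfp36 encodes tristetraprolin, which binds AU-rich elements in cytokine mRNAs and speeds their decay. It read 11.26, 11.49 and 11.11 in ApoE-/- on chow, 11.18, 11.06 and 11.38 in ApoE-/- on the high-cholesterol diet, 11.30, 11.42 and 11.18 in Bl6 on chow, and 10.97, 11.21 and 11.03 in Bl6 on the high-cholesterol diet. Samples 10 and 12 were the lowest of the 12, while sample 11 lay among the other groups. The diet difference in Bl6 was -0.23 ± 0.14 (limma adjusted p = 0.553), and the averaged genotype difference 0.06 ± 0.10 (interval -0.15 to 0.28). Zfp36 shares a chromosome with Apoe too, 244 protein-coding genes away in the same table. Ier2, a small nuclear protein of the early response, was near background: it was detected on 9 of 12 arrays, missing samples 3, 5 and 6, with 4.25 to 5.74 across ApoE-/- samples and 4.88 to 5.37 across Bl6 samples. Its averaged genotype difference of -0.11 ± 0.25 had the widest interval of the 9 genes, -0.66 to 0.45.

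**Figure D1:**
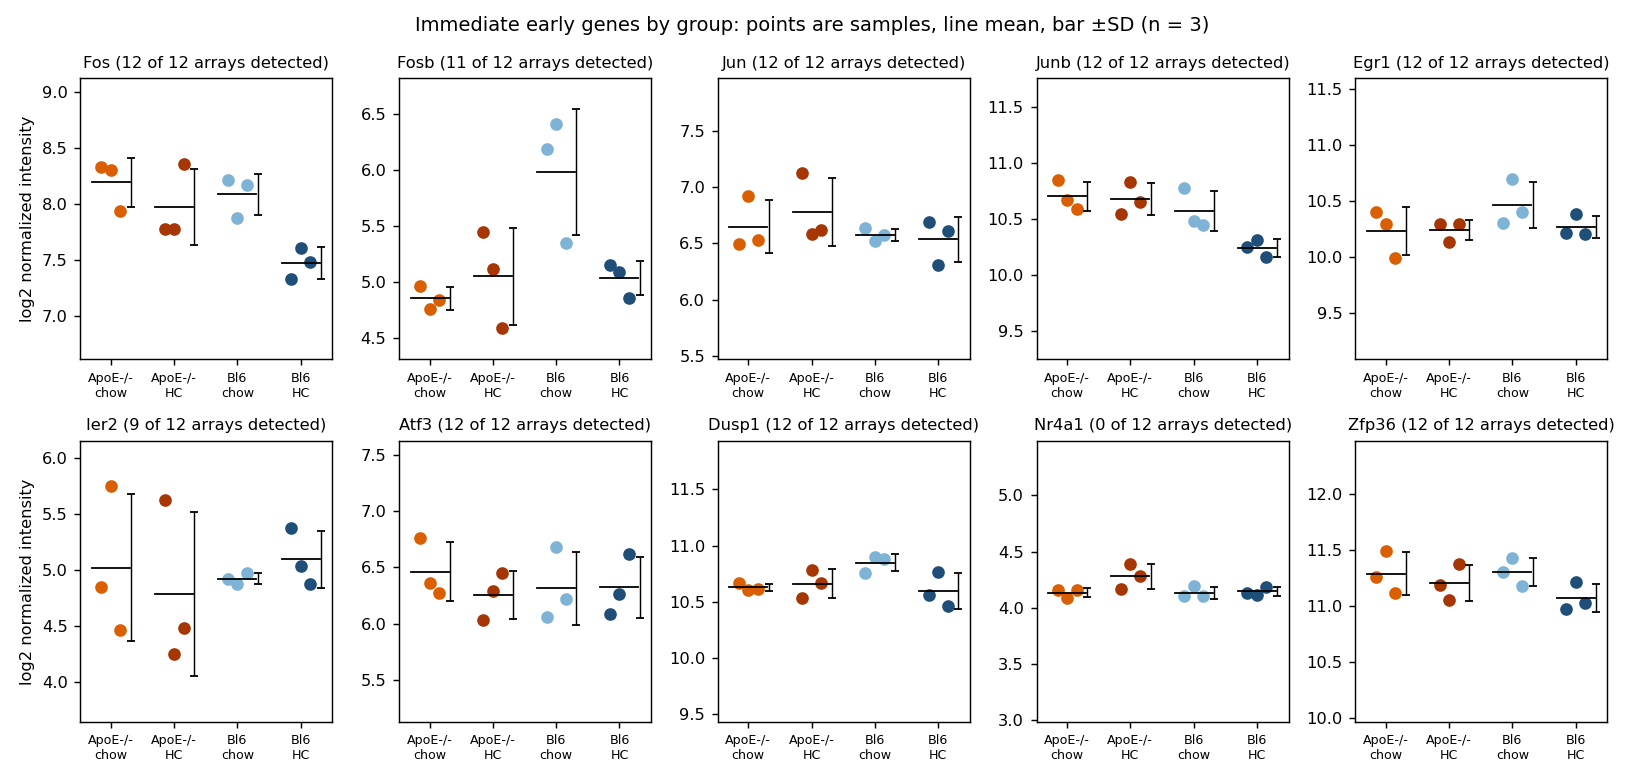
Log2 intensity of the immediate early genes (1 panel a gene, brightest probe) in the 12 samples, grouped by genotype and diet (HC, high-cholesterol); points are samples, lines group means and bars ± SD (n = 3), and the vertical axes start at different levels. Fos and Junb are lowest in the 3 samples of Bl6 on the high-cholesterol diet, while Fosb is highest in samples 7 and 8, from Bl6 on chow.

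The genotype comparisons set ApoE-/- samples against Bl6 samples. The loss of apolipoprotein E cannot be told apart there from Xist state. Of the 9 genes, 5 read above 0 in ApoE-/- against Bl6 averaged over diets, with a median difference of 0.04, against 0.00 over all tested probes. No member was called there, where 1.6% of all tested probes were, and 3 member probes had an unadjusted p under 0.05, where 15.8% of all did: Fos (0.30 ± 0.13), Fosb (-0.55 ± 0.19) and Junb (0.28 ± 0.09), which do not share a direction. Averaged over diets no member probe separated the 6 ApoE-/- samples from the 6 Bl6 samples, which 2.33% of all tested probes did. On chow no member was called against 0.254% of all probes, 1 had an unadjusted p under 0.05 against 10.5%, and 2, Fosb and Dusp1, did not overlap between genotypes, against 16.1%. On the high-cholesterol diet no member was called against 0.765%, 2 had an unadjusted p under 0.05 against 13.2%, and 2, Fos and Junb, did not overlap, against 19.2%. Of 10 probes, 2 without overlap are near the shares among all probes in both comparisons.

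The diet comparisons asked what the high-cholesterol diet did in each strain. In Bl6, 7 of 9 genes read lower on the high-cholesterol diet, with a median of -0.23, against 0.00 over all tested probes, of which 50.3% read lower. None was called, against 0.0379% of all tested probes, 3 had an unadjusted p under 0.05 against 12%, and the same 3, Fos, Fosb and Junb, did not overlap between the diets, against 16%. In ApoE-/- the difference was -0.22 ± 0.18 for Fos, 0.19 ± 0.27 for Fosb and -0.02 ± 0.13 for Junb, and the 9 genes had a median of -0.02. When the ApoE-/- diets are exchanged, every one of these diet differences turns sign by construction, to 0.22 for Fos, -0.19 for Fosb and 0.02 for Junb. There no member was called (0% of all tested probes were), none had an unadjusted p under 0.05 against 3.72%, and none was without overlap, against 8.31%. The interaction, which tests whether the diet difference itself depended on genotype, called no member and 0% of all probes, and 1 member, Fosb, had an unadjusted p under 0.05 against 7.6%. For Fos it was 0.39 ± 0.26 (limma adjusted p = 0.764) and for Junb 0.30 ± 0.18 (limma adjusted p = 0.745), so a diet effect confined to Bl6 was not shown. With the ApoE-/- diets exchanged the Fos interaction was 0.83 (unadjusted p = 0.00778, limma adjusted p = 0.572).

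**Figure D2:**
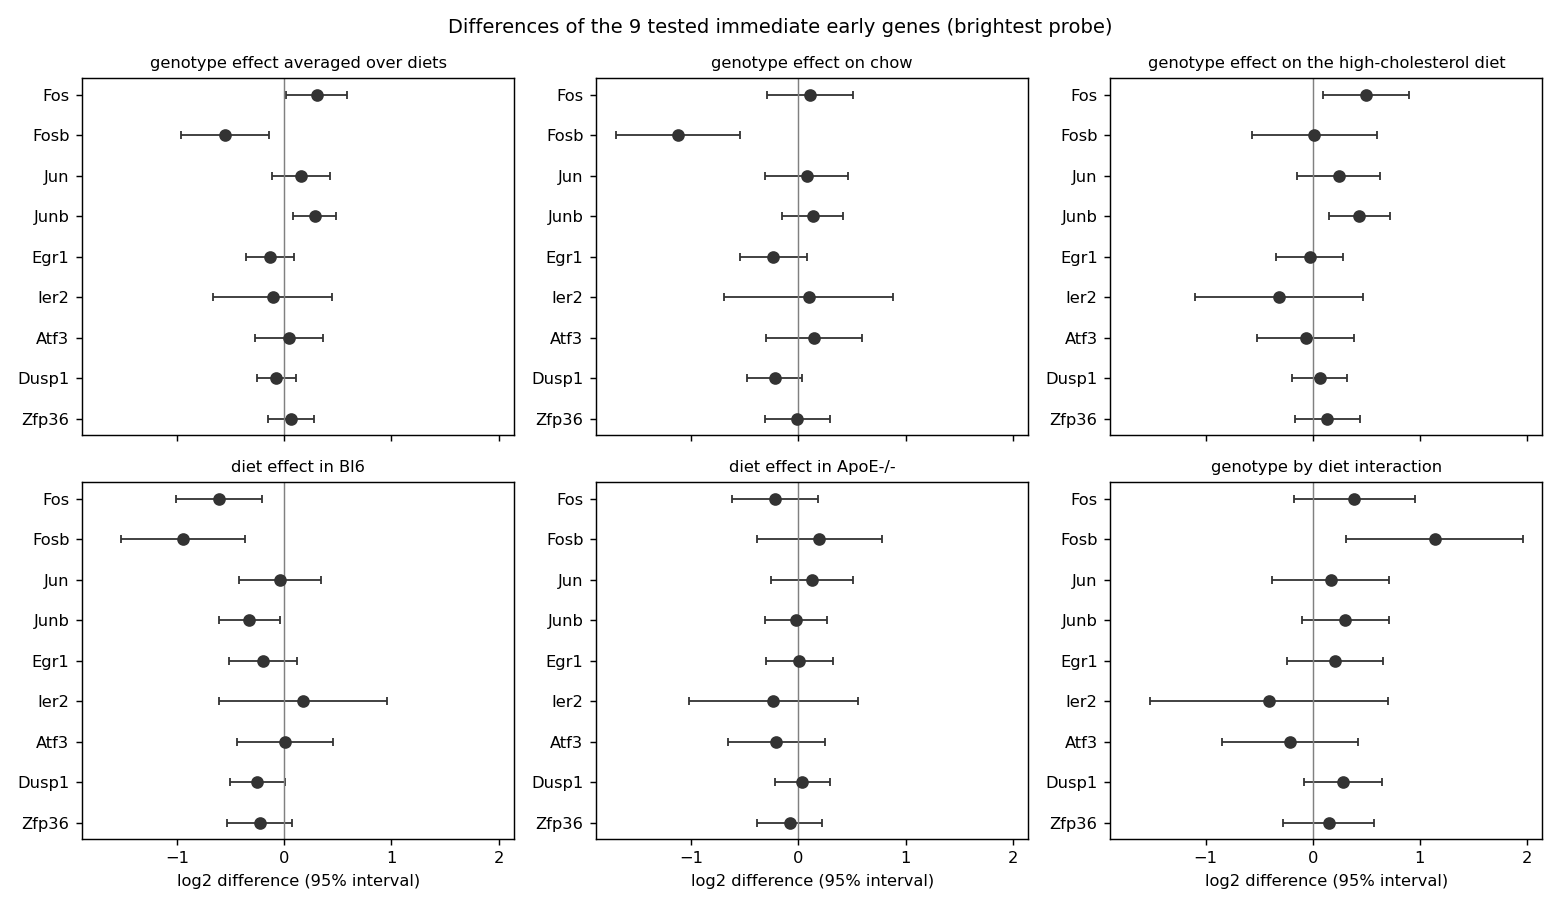
Log2 differences of the 9 tested genes in each comparison, with points for the limma estimate and bars for its 95% interval; HC is the high-cholesterol diet and the vertical line marks no difference. Intervals that miss 0 belong to Fos, Fosb and Junb, and none of their values passed the adjusted threshold.

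The 7 genes detected on all arrays, Fos, Jun, Junb, Egr1, Atf3, Dusp1 and Zfp36, were also followed as a mean per sample, as a description with no test. The mean ran from 9.01 to 9.25 in ApoE-/- on chow, 9.07 to 9.20 in ApoE-/- on the high-cholesterol diet, 9.12 to 9.22 in Bl6 on chow and 8.87 to 8.98 in Bl6 on the high-cholesterol diet. The 3 Bl6 high-cholesterol samples had the lowest means of the 12, also with the deposited log2 values (9.44 to 9.50, against at least 9.55 elsewhere). With median scaling in place of quantile normalisation they ran from 8.83 to 9.06 and overlapped ApoE-/- on the high-cholesterol diet, whose lowest value was 9.03. Among the cell type marker lists, only the macrophage mean set Bl6 on the high-cholesterol diet apart from all other groups. The mean of the 8 macrophage markers was 12.62 to 12.67 there against 11.99 to 12.20 in the other 9 samples. Vsig4 read 9.34 to 9.69 there, against 5.57 to 6.34 in Bl6 on chow and 6.96 to 9.72 in ApoE-/-. Against Bl6 on chow, Vsig4 carries most of the gap: it differed by 3.56 (limma adjusted p = 0.106), and the other macrophage markers by 0.04 (Spic) to 0.32 (C1qc), none of them called. The dendritic cell mean ran from 9.72 to 10.00 over all 12 samples. Between genotypes, the neutrophil mean was 8.71 to 9.58 in ApoE-/- and 7.81 to 8.26 in Bl6, with Mmp8 detected on no array, 7 of 8 tested neutrophil markers rose in ApoE-/- averaged over diets, and 3 of 7 T cell markers rose. Of 8 macrophage markers 7 read lower in ApoE-/- averaged over diets, and C1qa (-0.46, limma adjusted p = 0.0231) and Cd68 (-0.57, limma adjusted p = 0.0251) fell, while Vsig4 read higher there (0.83, limma adjusted p = 0.459). Of 4 tested monocyte markers 1, F13a1, rose (0.94, limma adjusted p = 0.0234). The monocyte mean was 5.16 to 6.14 over all samples, with the genotypes overlapping and Ccr2 detected on no array, and the B cell mean 9.24 to 10.44. The part of these cell types in the early gene values was not tested.

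Within groups the members did not move as 1 block. Residual SD ran from 0.109 for Dusp1 to 0.509 for Ier2, with a median of 0.220 over the 9 genes against 0.242 over all tested probes. Deviations from the group means, compared between the 7 genes over 12 samples that share the same arrays, gave 21 pairs, 14 of them with a correlation above 0 and a median r of 0.13. The highest was Egr1 with Zfp36 (r = 0.68, rho = 0.67), followed by Egr1 with Atf3 (r = 0.59) and Fos with Zfp36 (r = 0.55), and the lowest was Jun with Dusp1 (r = -0.75, rho = -0.83). In sample 3, 0 of the 7 genes lay above their group mean, while in samples 1, 6 and 11 it was 5 of 7. The genes whose deviations were most like the mean of the 7, among 9990 compared, were Slc9a3r2 (r = 0.95), Scaf11 (r = 0.94), Ate1, Lrrc45, mt-Atp6 and Gm5815 (r = 0.93 each), over 12 samples and with no test.

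**Figure D3:**
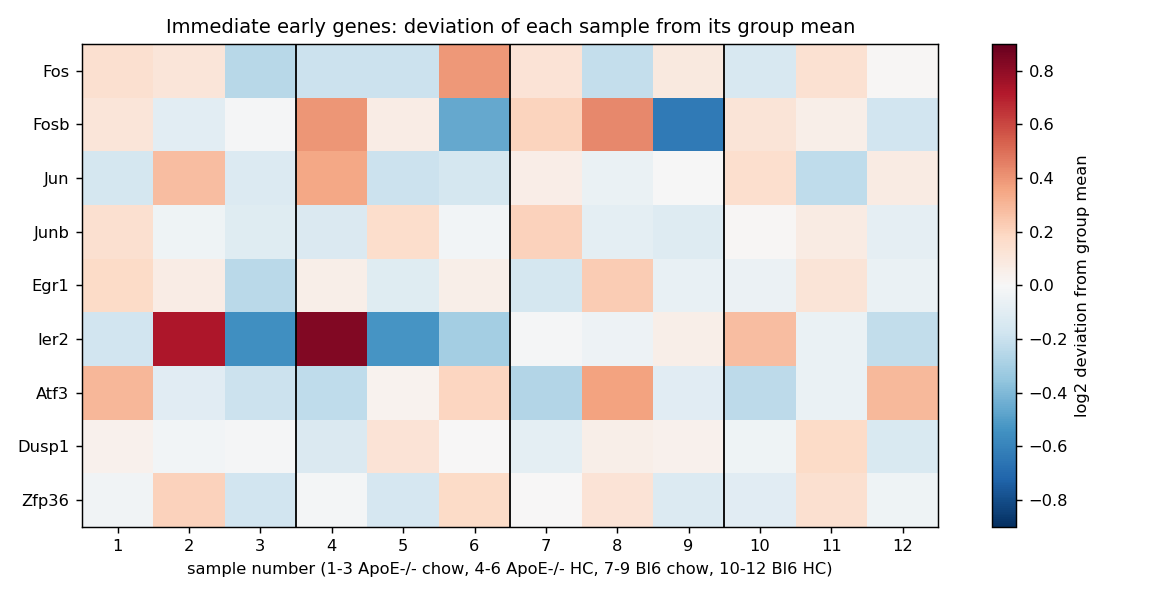
Deviation of each sample from its group mean, in log2 units, for the 9 tested immediate early genes (rows) and 12 samples (columns), where HC is the high-cholesterol diet; colour gives sign and size. Ier2 and Fosb, the dimmest probes, vary most, and sample 3 lies at or below its group mean for all 7 genes detected on every array.

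Other genes of the response were read from lists. Of 14 tested further immediate early transcription factors, 17 further feedback genes, 13 upstream kinases and factors and 10 heat shock genes, none rose or fell in any comparison by limma. At an unadjusted p under 0.05 in the averaged genotype effect they had 3, 7, 4 and 1, where 15.8% of all tested probes did. In Bl6 by diet they had 3, 0, 2 and 3, where 12% of all did. Their medians in the averaged genotype effect were 0.08, -0.04, 0.06 and -0.06. By diet in Bl6, 14 of the 17 feedback genes read lower, with a median of -0.11, while 50.3% of all tested probes read lower.

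Nr4a2, the close relative of Nr4a1, had the smallest p among the transcription factors, at 5.41 to 5.99 across ApoE-/- samples and 4.37 to 5.53 across Bl6 samples, a difference of 0.79 ± 0.18 (limma adjusted p = 0.0574) that overlapped by sample 10. Dusp4, a nuclear MAP kinase phosphatase like Dusp1, lay at 5.42 to 6.48 across ApoE-/- samples and 6.52 to 6.95 across Bl6 samples, without overlap, a difference of -0.69 ± 0.17 (limma adjusted p = 0.0712). This is the brightest of 3 tested Dusp4 probes, and the other 2 differed by -0.55 (limma adjusted p = 0.156) and -0.25 (limma adjusted p = 0.364), the last by 0.06 in the other direction on chow. Nr4a2 and Dusp4 stood just outside the threshold, and in opposite directions. Without background correction both passed it with smaller differences, 0.24 for Nr4a2 (limma adjusted p = 0.0399) and -0.33 for Dusp4 (limma adjusted p = 0.0192). Mrtfa, a serum response factor partner, differed by 0.45 ± 0.16 (limma adjusted p = 0.191) and the chaperone gene Dnajb1 by 0.18 ± 0.07 (limma adjusted p = 0.254). The mean of the heat shock list was 8.39 to 8.72 over all 12 samples, with the 4 groups overlapping.

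Apart from the cell type markers, the only list with calls was that of AU-rich mRNAs that Zfp36 is known to bind. There 2 of 9 tested genes rose in ApoE-/- averaged over diets, against 1.6% of all tested probes called. The Zfp36 probe itself was not called. This list was chosen with earlier results of these data known, so its shares are a description and no test of Zfp36 targets. The median over those 9 genes was 0.17, and 6 of them read above 0 and 3 below. Those below were Tnf (-0.35 ± 0.12, limma adjusted p = 0.163), Csf2 (-0.75 ± 0.28, limma adjusted p = 0.219) and Cxcl1 (-0.32 ± 0.24, limma adjusted p = 0.562). On chow 1 of the 9 rose, against 0.254% of all tested probes called, and on the high-cholesterol diet 1, against 0.765%. Ccl3, a chemokine of myeloid cells, read 9.52, 9.60 and 9.01 in ApoE-/- on chow, 8.95, 9.13 and 9.55 in ApoE-/- on the high-cholesterol diet, 8.45, 8.26 and 8.80 in Bl6 on chow and 8.33, 8.47 and 8.79 in Bl6 on the high-cholesterol diet. All ApoE-/- samples stood above all Bl6 samples, and Ccl3 rose by 0.77 ± 0.15 (limma adjusted p = 0.0314). Il10, the anti-inflammatory cytokine, read 6.28, 6.56 and 6.05, then 5.85, 5.87 and 6.20 in ApoE-/-, and 5.25, 4.96 and 4.46, then 5.77, 5.64 and 6.22 in Bl6, chow first. It rose in ApoE-/- by 0.75 ± 0.16 averaged over diets (limma adjusted p = 0.0406) and by 1.40 ± 0.22 on chow (limma adjusted p = 0.0272). The chow difference was 1.09 with the ApoE-/- diets exchanged, where it did not pass (limma adjusted p = 0.103). On the high-cholesterol diet Il10 differed by only 0.10 ± 0.22 (limma adjusted p = 0.897), so the averaged value came mostly from chow. Within Bl6, Il10 read 0.99 higher on the high-cholesterol diet (limma adjusted p = 0.143). Il1b, the inflammatory cytokine, read 11.05 to 11.22 in ApoE-/-, 11.07 to 11.45 in Bl6 on chow and 10.17, 10.55 and 10.18 in Bl6 on the high-cholesterol diet. The lowest group was again Bl6 on the high-cholesterol diet, without overlap, and Il1b rose by 0.85 ± 0.14 in ApoE-/- on that diet (limma adjusted p = 0.0261), and by 0.86 with the ApoE-/- diets exchanged (limma adjusted p = 0.0329). Leaving out 1 array lost the call in 7 of 12 cases for Ccl3, 10 of 12 for averaged Il10, 4 of 12 for Il10 on chow and 5 of 12 for Il1b, with the direction kept throughout. Without background correction the Il10 differences were smaller, at 0.27 averaged and 0.51 on chow, and still passed (limma adjusted p = 0.0237 and 0.0121). With no probe filter the averaged Il10 call was lost (limma adjusted p = 0.0577), with median scaling that of Il1b (limma adjusted p = 0.0707), and with only the groups compared in the fit those of Il10 on chow (limma adjusted p = 0.124) and Il1b (limma adjusted p = 0.128). These genes are also made by neutrophils, monocytes or macrophages, some of whose markers were called between genotypes as given above, and the part of those cells was not tested.

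**Figure D4:**
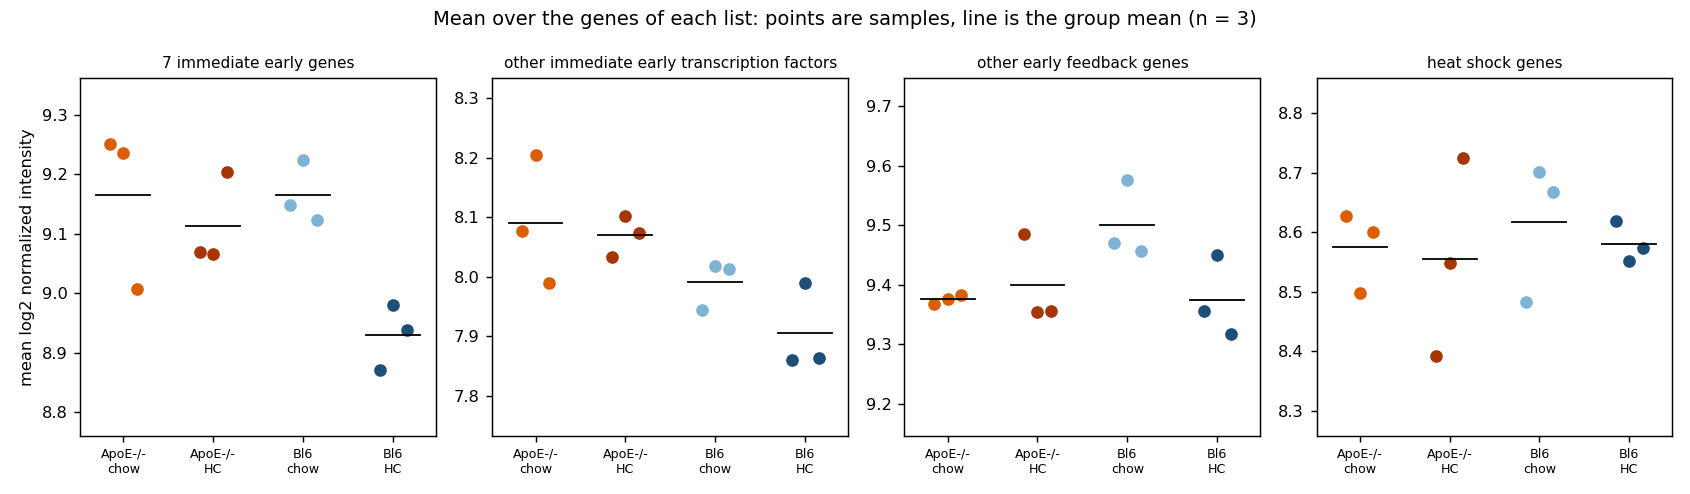
Mean log2 intensity per sample over the genes of a list, for the 7 immediate early genes detected on all arrays, the other immediate early transcription factors, the other early feedback genes and the heat shock genes; points are samples, lines group means (n = 3), HC is the high-cholesterol diet, and the panels start at different levels. The mean of the 7 genes is lowest in all 3 samples of Bl6 on the high-cholesterol diet, at 8.87 to 8.98, while the heat shock means of the 4 groups overlap.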

How the data were processed

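RNA of CD11c+ spleen cells was measured on 12 Illumina arrays, 3 in each of 4 groups, with 100 ng of total RNA per sample per the labels. Per the file headers, the first deposited table gives a signal and a detection p-value for each probe and array; its values are a linear intensity that the authors had not subtracted or scaled. The second deposited table holds log2 values: each column equals the log2 intensity of 1 array plus a constant of 0 to 0.443, with an SD of the difference of at most 3.68e-05, so it was scaled per array and neither quantile-normalised nor background-subtracted; the origin of the constants is not stated in those sources. Its column medians for samples 1 to 12 were 6.91, 6.98, 7.12, 6.90, 6.99, 6.90, 6.87, 6.93, 6.85, 6.91, 6.82 and 6.88.

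The steps in limma 3.58.1 (R 4.3.3) were normexp background correction (nec with inferred negative controls, offset 16), quantile normalisation and log2. Probes entered the tests when 3 or more of 12 arrays detected them (p under 0.05). The tests were run in 1 model of 4 group means (8 residual degrees of freedom, prior 3.42), as two-sided moderated tests with Benjamini-Hochberg adjustment over 26390 probes. A gene stands for its brightest tested probe. The GEO platform annotation gave 1 symbol for 35784 probes, none for 10453 and several for 0, and current symbols were taken from the GRCm38.p6 table for 28620 probes by gene number, 2637 by transcript and 2128 by symbol. Lists had 15 of 16, 19 of 20, 13 of 15, 11 of 12 and 11 of 11 genes with a named probe. The rule for named genes took all members, every list gene called in a contrast (at most 4 per list and contrast) and otherwise the list gene with the smallest p in the averaged genotype effect. Members and lists were chosen with earlier results of these data known. The fit was tested on simulated data. Alternatives were the exchange of the ApoE-/- diets, no background correction, an offset of 50, median scaling, the deposited log2 values, other probe filters, only the groups compared, array weights and leaving out each array.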

Additional observations from a re-analysis of the deposited data

How the results depend on the processing

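No paired analysis was possible because the running numbers 1 to 12 are shared by no groups. Calls among the member probes went from 0 to 1 for genotype averaged over diets and for genotype on the high-cholesterol diet, each without background correction and with the deposited log2 values, in each case Junb. Leaving out 1 array gave 0 to 1 calls for genotype on chow (Fosb without sample 9, -1.44 with adjusted p = 0.0496) and 0 in the other comparisons. The deposited log2 values moved the median of all probes by up to 0.108 for genotype on the high-cholesterol diet. Of 456 gene values under the other alternatives, 422 kept direction and side of the threshold, 30 turned and 4 crossed it; leaving out 1 array, 611 of 648 did, 36 turned and 1 crossed. No turned value was called, and the cause was not tested except for the diet effect under the exchange, which turns by construction.

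With the ApoE-/- diets exchanged, the diet difference in ApoE-/- read 0.22 for Fos, -0.19 for Fosb, -0.13 for Jun, 0.024 for Junb, -0.0095 for Egr1, 0.24 for Ier2, 0.21 for Atf3, -0.034 for Dusp1 and 0.081 for Zfp36. Genotype on chow turned to -0.11 for Fos, -0.14 for Ier2 and -0.059 for Atf3, genotype on the high-cholesterol diet to -0.18 for Fosb and 0.14 for Atf3, and the interaction to -0.090 for Jun, 0.062 for Ier2 and 0.20 for Atf3. Median scaling turned Zfp36 on chow to 0.10 and in the interaction to -0.024, and by diet in ApoE-/- Egr1 to -0.060 and Dusp1 to -0.041. The deposited log2 values turned the averaged genotype effect of Ier2 to 0.062, Zfp36 on chow to 0.054, on the high-cholesterol diet Egr1 to 0.017, Ier2 to 0.043 and Atf3 to 0.059, and by diet Atf3 in Bl6 to -0.0083 and Junb in ApoE-/- to 0.0051. Array weights turned the diet difference of Atf3 in Bl6 to -0.027 and of Egr1 in ApoE-/- to -0.020.

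Leaving out 1 array, Atf3 ran from -0.14 to 0.19 by diet in Bl6, -0.033 to 0.13 for averaged genotype, -0.00020 to 0.33 on chow and -0.18 to 0.080 on the high-cholesterol diet. By diet in ApoE-/-, Dusp1 ran from -0.028 to 0.10, Egr1 from -0.11 to 0.10, Fosb from -0.0033 to 0.43, Ier2 from -0.65 to 0.13, Jun from -0.047 to 0.27, Junb from -0.10 to 0.048 and Zfp36 from -0.17 to 0.021. Genotype on the high-cholesterol diet gave -0.0010 to 0.15 for Dusp1, -0.058 to 0.030 for Egr1 and -0.18 to 0.25 for Fosb. Ier2 ran from -0.31 to 0.031 for averaged genotype and -0.27 to 0.37 on chow, Zfp36 from -0.12 to 0.074 on chow, and Jun from -0.11 to 0.074 by diet in Bl6, -0.0080 to 0.31 in the interaction and -0.062 to 0.15 on chow.

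Over all probes the number called moved as well. For averaged genotype it went from 423 to between 332 and 1653 (142 to 603 leaving out 1 array). On chow it went from 67 to between 26 and 225 (26 to 77). On the high-cholesterol diet it went from 202 to between 22 and 949 (38 to 156). By diet in Bl6 it went from 10 to between 4 and 266 (2 to 41). By diet in ApoE-/- it was 0 to 1 and for the interaction 0 to 10. Counts over sets of such unlike size are not set against each other. Ier2, Fosb and Nr4a1 lie near background, where signal limits what can be read.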
